A study of Mus musculus with 4 samples.

Results

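Glycolysis and the response to low oxygen were followed through 36 genes, out of 21862 genes listed once in the expression tables. The 36 genes were chosen by name from their known roles, with earlier results of these data known. They comprised 2 glucose transporters, 14 genes of glycolysis from hexokinase to enolase, 5 genes that handle pyruvate and lactate, 6 genes for hypoxia-inducible factor (Hif) subunits and oxygen sensing, and 9 other Hif targets. The genes were measured by RNA-seq in mouse neural progenitor cells (NPCs) under 4 conditions, which were control and shSrf cells on a soft matrix of 0.5 kPa and on a harder matrix of 12 kPa. Both kinds of cell were the line N31, an NPC line differentiated from induced pluripotent stem cells and carrying doxycycline-inducible Oct4, Klf4, c-Myc and Sox2 on piggyBac transposons together with rtTA, and no doxycycline is named for these cultures. All cells grew without EGF and bFGF on matrices laid over dishes coated with type I collagen. The shSrf cells also expressed a short hairpin RNA against Srf, the serum response factor, from a retrovirus, and the sources used here do not say which vector, if any, the control cells carried. Each condition had 1 library, so the spread between cultures is unknown, no test was run, and every difference described here compares single libraries.

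Glycolysis converts glucose to pyruvate in the cytosol. Glucose enters through Slc2a transporters, is phosphorylated by hexokinase and committed by phosphofructokinase, is split by aldolase, and yields ATP in the steps from Gapdh to pyruvate kinase. Pyruvate then either enters mitochondria through pyruvate dehydrogenase or is reduced to lactate, which leaves the cell through Slc16a transporters. Hif is a heterodimer of an oxygen-labile alpha subunit and the stable beta subunit Arnt. In the presence of oxygen, prolyl hydroxylases of the Egln family mark the alpha subunit for the ubiquitin ligase that contains Vhl, and when oxygen is low the alpha subunit persists and raises transcription of most glycolytic genes and of genes for autophagy, collagen hydroxylation and growth arrest. That control acts on the Hif1a protein, which RNA-seq does not measure. Proliferating neural progenitors are known for high glycolysis, which falls when they become neurons.

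Srf itself was measured at 34.4 and 35.6 FPKM (fragments per kilobase, a level corrected for transcript length and library depth) in the control libraries on 0.5 and 12 kPa, and at 16.2 and 17.4 FPKM in the shSrf libraries. The knockdown was therefore 2.12-fold on the soft matrix and 2.04-fold on the harder one. The neural progenitor label was only partly borne out by its markers: Sox1, Hes5 and Olig2 were listed at 0 in all 4 libraries, and of 10 neural progenitor markers 4 were above 2 FPKM in each control library and 5 in each shSrf library. Vim led that list with 1481 to 2396 FPKM. Sox2, which these cells also carry as a transgene, was at 4.29 and 5.49 FPKM in the control libraries and at 19.1 and 20.4 FPKM in the shSrf libraries, and Nes at 51.6, 36.1, 16.4 and 15.5 FPKM in control 0.5 kPa, control 12 kPa, shSrf 0.5 kPa and shSrf 12 kPa. Of 8 mesenchymal markers, 8 were above 2 FPKM in 3 libraries and 7 in the shSrf library on 12 kPa, with a summed level of 2547 to 2758 FPKM. The 6 neuron markers summed to 40.3 to 60.7 FPKM with Rbfox3 listed at 0 throughout, the 5 astrocyte markers to 6.37 to 9.42 FPKM, the 5 oligodendrocyte markers to 1.58 to 3.20 FPKM, and the 8 proliferation markers to 843 to 872 FPKM. The part of these marker levels in the differences between control and shSrf cells below was not tested. In bulk RNA, fewer cells of a type and less RNA per cell cannot be told apart. From the whole-read steps of the lowest values, the libraries held about 29100000, 24100000, 45100000 and 62300000 reads in the order above.

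All 36 genes were listed, and 35 of them exceeded 2 FPKM in all 4 libraries, the study's inclusion rule, which 10489 genes met. Epas1 (0.24 to 0.37 FPKM), which encodes the alpha subunit Hif2a, was the one that did not, so no ratio is counted for it. The group spanned a wide range of levels. Gapdh was highest, at 991, 992, 1072 and 1069.7 FPKM in control 0.5 kPa, control 12 kPa, shSrf 0.5 kPa and shSrf 12 kPa, an order of libraries kept in every series of 4 values below. Eno1, Tpi1, Aldoa and Ldha followed with 360 to 515 FPKM across the libraries, then Gpi1 and Pgam1 with 218 to 297 FPKM. Car9, Pfkfb3, Ankrd37 and Slc2a3 were under 8 FPKM in each library. Summed over the 36 genes, the level was 4183, 4005, 4581 and 4455 FPKM, and that was 0.652%, 0.626%, 0.664% and 0.654% of all FPKM in the library. The abundant enzymes are uncertain in absolute level, because Gapdh, Eno1, Pgk1, Aldoa, Tpi1, Ldha and Pgam1 have processed copies elsewhere in the genome and only reads of high mapping quality were kept by the authors. One such copy, Eno1b, was listed with 21.4, 19.5, 30.3 and 31.5 FPKM of its own.

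**Figure D1:**
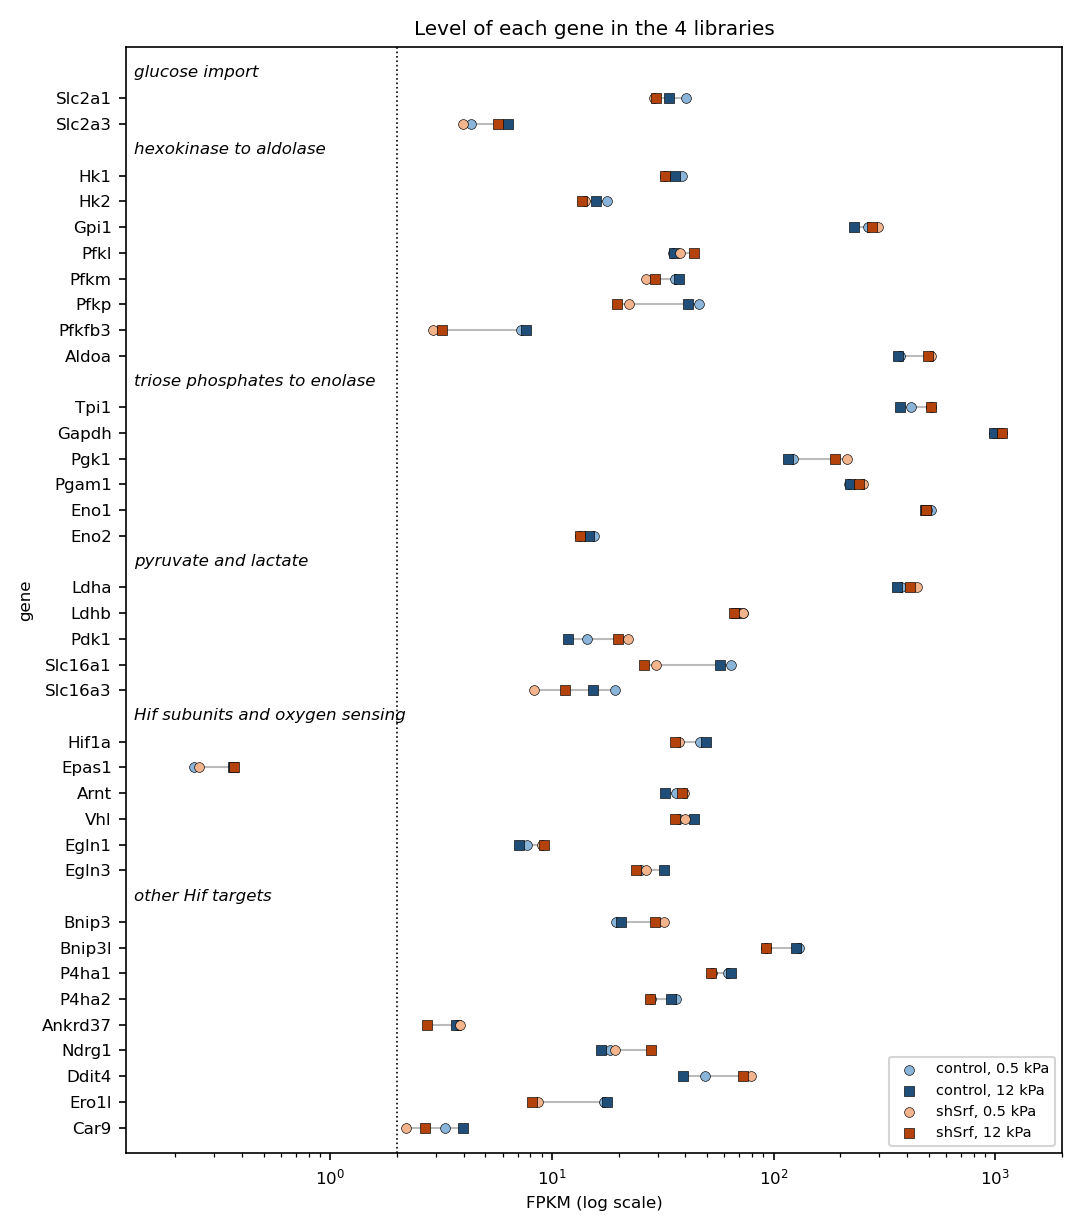
FPKM of each of the 36 genes on a log axis, 1 row per gene grouped by role, with 1 point for each of the 4 libraries (blue control, orange shSrf, circles 0.5 kPa, squares 12 kPa) and a dotted line at the minimum of 2 FPKM. The blue and orange points lie far apart for Pfkp, Pfkfb3, Slc16a1 and Ero1l, where orange is lower, and for Pgk1 and Pdk1, where orange is higher, while Epas1 is left of the line.

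Against control cells, shSrf cells had higher Pgk1, Pdk1 and Ddit4 and lower Pfkp, Pfkfb3, Slc16a1 and Ero1l on both matrices, each by more than 1.5-fold. That threshold was set for this comparison, for which the study gives none. On the 0.5 kPa matrix 4 of the 35 genes were higher past 1.5-fold, where 9.19% of all 10489 genes were, and 5 were lower, where 9.28% of all genes were. On the 12 kPa matrix 4 were higher (10.2% of all genes) and 4 lower (8.88% of all genes). At both stiffnesses 3 were higher (6.63% of all genes) and 4 lower (6.17% of all genes), which is 8.57% and 11.4% of the 35. With genes centred in bins of transcript GC content, the split on 0.5 kPa was 3 higher and 7 lower. No share of all genes is given under that centring, so this split cannot be set beside the shares above. The median log2 ratio of the 35 genes was -0.01 on 0.5 kPa and -0.14 on 12 kPa, beside 0.01 for all genes on each matrix. The 35 genes therefore did not share 1 direction, and genes of the same pathway stood at opposite ends. The ratio on 0.5 kPa and the ratio on 12 kPa share no library, and across the 35 genes they ran together with a Pearson correlation of 0.897 and a Spearman correlation of 0.886, close to 0.881 and 0.856 over all genes. Signs matched for 31 of the 35 (88.6%, beside 84.6% of all genes).

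The promoters of the 5 of these 7 genes that have a single entry in RefSeq are shown to let the reader see the Hif sequence in genes of both directions. Each line is the 250 bases before the transcription start, 5′ to 3′ on the gene's strand, from RefSeq on GRCm38.p6, the assembly that mm10 names. The windows are chrX:106186850-106187099 (+ strand) for Pgk1, chr10:59951771-59952020 (- strand) for Ddit4, chr13:6648772-6649021 (- strand) for Pfkp, chr3:104638414-104638663 (+ strand) for Slc16a1 and chr14:45318573-45318822 (- strand) for Ero1l, which RefSeq lists as Ero1a. Capitals mark the core of the hypoxia response element, written as ACGTG or GCGTG and read on both strands, so that CACGT and CACGC are the same cores on the other strand and CACGTG holds ACGTG on each strand.
Pgk1: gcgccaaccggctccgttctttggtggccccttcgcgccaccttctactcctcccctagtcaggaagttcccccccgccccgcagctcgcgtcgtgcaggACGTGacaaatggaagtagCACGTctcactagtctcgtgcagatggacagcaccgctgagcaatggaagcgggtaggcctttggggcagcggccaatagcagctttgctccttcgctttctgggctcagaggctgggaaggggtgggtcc
Ddit4: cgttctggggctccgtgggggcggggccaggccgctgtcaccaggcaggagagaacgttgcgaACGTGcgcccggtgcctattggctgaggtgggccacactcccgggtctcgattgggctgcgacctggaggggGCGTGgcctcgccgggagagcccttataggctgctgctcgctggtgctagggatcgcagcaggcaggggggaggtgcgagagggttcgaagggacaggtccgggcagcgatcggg
Pfkp: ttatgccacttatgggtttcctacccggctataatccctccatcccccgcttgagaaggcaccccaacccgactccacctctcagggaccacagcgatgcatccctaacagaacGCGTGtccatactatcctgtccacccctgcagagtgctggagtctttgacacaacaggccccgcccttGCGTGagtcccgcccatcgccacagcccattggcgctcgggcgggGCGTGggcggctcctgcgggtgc
Slc16a1: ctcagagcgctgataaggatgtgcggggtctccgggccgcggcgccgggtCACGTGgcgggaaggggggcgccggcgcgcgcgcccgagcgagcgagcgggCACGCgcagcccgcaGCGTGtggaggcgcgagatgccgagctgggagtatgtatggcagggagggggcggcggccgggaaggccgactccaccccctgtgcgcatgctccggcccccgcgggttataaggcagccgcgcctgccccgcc
Ero1l: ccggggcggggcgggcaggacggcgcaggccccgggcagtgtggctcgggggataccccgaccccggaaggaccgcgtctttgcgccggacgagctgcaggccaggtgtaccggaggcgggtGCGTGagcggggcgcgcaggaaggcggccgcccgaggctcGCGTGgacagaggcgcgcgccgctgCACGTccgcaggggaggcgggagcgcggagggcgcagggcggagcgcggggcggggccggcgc

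Pgk1 and Ddit4, the higher pair, and Slc16a1, Pfkp and Ero1l, the lower ones, all carried such a core. Pgk1 had ACGTG once on each strand, Pfkp had 3 of the GCGTG form and none of the other, and Ddit4 had 1 of each. Of the 36 genes, 32 matched a RefSeq promoter (43 promoters), Slc2a3, Epas1, Bnip3l and Ndrg1 being without one in the table. Either core was present in 81.4% of the 43 promoters, in 38.6% of all 32851 promoters and in 57.7% of the 10605 promoters of genes above the FPKM minimum. The ACGTG form alone was in 53.5% of the 43 promoters, in 16.6% of all and in 21.97% of those of genes above the minimum, and GCGTG in 55.8%, 28.2% and 46.5%. These windows were rich in G and C, with a median GC content of 62.8% against 52.4% for all promoters and 60.4% for those of expressed genes. Among windows of at least 60% GC, either core was in 96.2% of 26 promoters of the 36 genes, in 63.8% of all and in 67.2% of those of expressed genes. The core was present in 3 of 3 genes higher at both stiffnesses, 4 of 4 lower ones and 21 of 25 others with a promoter. With a core in 28 of the 32 genes, its presence had little room to separate 3 higher genes from 4 lower ones, so no conclusion is drawn. The CArG box, the element that Srf binds, was searched on both strands with no mismatch and was in 0 of the 43 promoters, against 1.47% of all promoters and 1.07% of those of expressed genes. A match of letters is a description of the sequence and not a measured site. The 36 genes include Hif targets by choice, so their share of the core was not independent of how they were picked.

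Among the glucose importers, Slc2a1 (Glut1), the general transporter of dividing cells, was at 40.1, 33.8, 28.8 and 29.6 FPKM. Both shSrf libraries were below both control libraries, with log2 ratios to control of -0.48 on 0.5 kPa and -0.19 on 12 kPa. Slc2a3 (Glut3), the high-affinity transporter typical of neurons, was far lower at 4.29, 6.36, 3.96 and 5.72 FPKM, with both 12 kPa libraries above both 0.5 kPa libraries and log2 ratios to control of -0.12 and -0.15. Its share of the summed FPKM of both transporters was 9.66%, 15.8%, 12.1% and 16.2%.

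In the first steps of glycolysis the phosphofructokinase isoforms separated. Pfkp, the platelet isoform, was at 45.9, 41.2, 22.3 and 19.6 FPKM, 2.05-fold below control on 0.5 kPa and 2.11-fold below on 12 kPa. Pfkm, the muscle isoform, was at 35.8, 37.6, 26.5 and 29.1 FPKM, and its log2 ratios to control of -0.44 and -0.37 stayed within 1.5-fold. Pfkl, the liver isoform, was at 35.0, 35.6, 37.8 and 43.8 FPKM, with log2 ratios to control of 0.11 and 0.30, and with centring in GC bins these were -0.03 and 0.07, so no direction is given for it. In FPKM as deposited, Pfkp held the largest share of the summed phosphofructokinase FPKM in the control libraries (39.3% and 36.02%) and the smallest in the shSrf libraries (25.8% and 21.1%), while Pfkl went from 30.0% and 31.2% to 43.6% and 47.4%. The sum was 117, 114, 86.6 and 92.5 FPKM. Pfkfb3, whose product makes the allosteric activator of phosphofructokinase, was at 7.25, 7.65, 2.92 and 3.18 FPKM, the furthest from control of the 35 genes in both comparisons, with log2 ratios of -1.31 (counting SE 0.12) and -1.27 (counting SE 0.11).

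The other genes of these steps stayed within 1.5-fold between shSrf and control cells. Hexokinase Hk1 was at 32.5 to 38.7 FPKM and Hk2, the isoform under Hif control, at 13.7 to 17.7 FPKM, with Hk1 making up 68.6% to 70.4% of their sum in every library. Gpi1, which converts glucose 6-phosphate to fructose 6-phosphate, was at 267, 231, 297 and 278 FPKM. Aldoa, the aldolase that splits the sugar, was at 371, 362, 512 and 495 FPKM, higher in both shSrf libraries by 1.38-fold and 1.36-fold. Centring in GC bins left its log2 ratios at 0.27 and 0.17, down from 0.46 and 0.45.

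**Figure D2:**
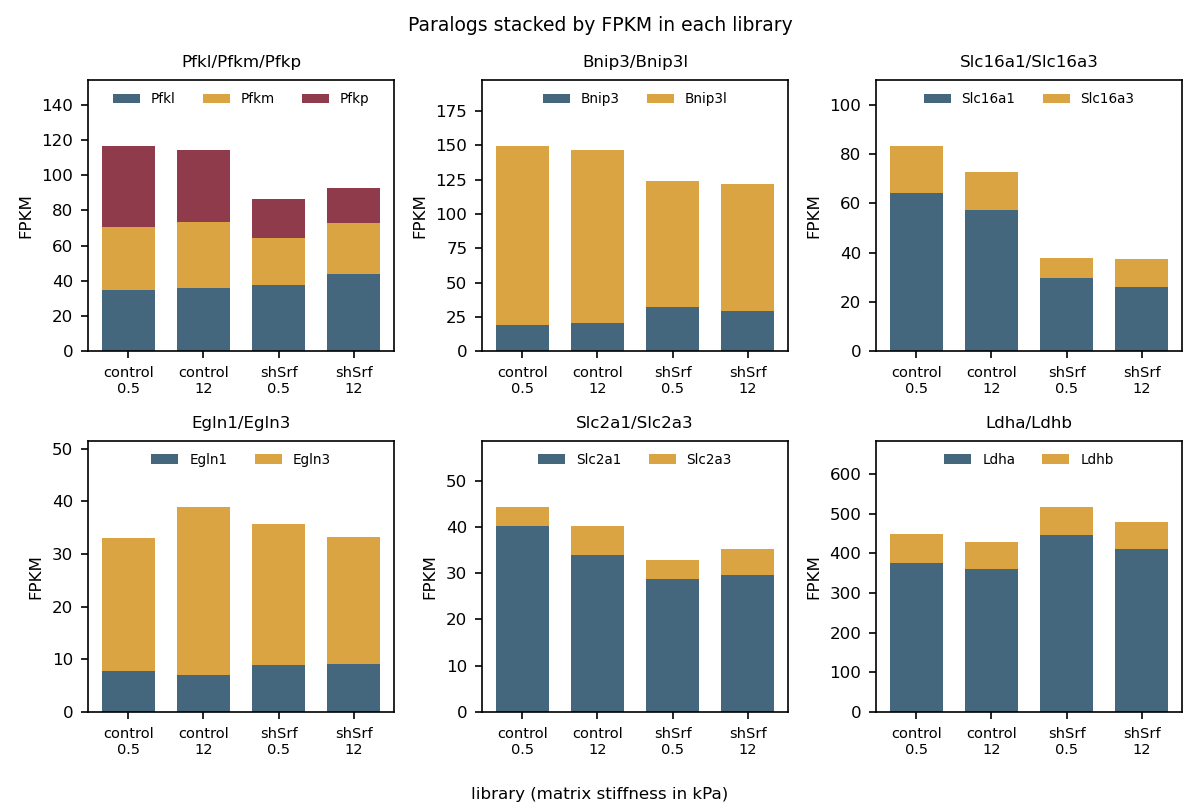
FPKM of related genes stacked for each of the 4 libraries (bars, from 0), with 1 panel per family and colours for its members. In the phosphofructokinase panel the Pfkp layer shrinks from 45.9 and 41.2 FPKM in control to 22.3 and 19.6 FPKM in shSrf cells while Pfkl does not, in the Slc16a panel both layers are shorter in shSrf cells, and in the Bnip3 panel the Bnip3 layer is taller as Bnip3l is shorter.

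In the steps from triose phosphate to enolase Pgk1 stood apart from its neighbours. Pgk1, phosphoglycerate kinase and the first step that returns ATP, was at 122, 116, 213 and 189 FPKM, which is 1.74-fold (log2 0.80, counting SE 0.02) and 1.62-fold (log2 0.70, counting SE 0.02) above control. Both shSrf libraries lay above both control libraries. Tpi1, triose phosphate isomerase, was at 418, 370, 510.4 and 511 FPKM and stayed within 1.5-fold, at 1.22-fold and 1.38-fold. Gapdh, the step before Pgk1, differed by 1.08-fold from control on each matrix, and its log2 ratios of 0.11 and 0.11 became -0.03 and -0.10 with centring in GC bins, so no direction is given for it. Pgam1, phosphoglycerate mutase, was at 218, 221, 253 and 243 FPKM. Eno1, the general enolase, was at 515, 482, 494 and 485 FPKM, and the neuronal enolase Eno2 was at 13.3 to 15.5 FPKM, no more than 2.96% of their sum in any library. Of the 6 genes of these steps, 1 was past 1.5-fold at both stiffnesses and 5 at neither. That list is too short to be read against the 6.63% of all genes higher and 6.17% lower at both stiffnesses.

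At the exit of glycolysis the lactate exporters were lower and Pdk1 higher in shSrf cells. Slc16a1 (MCT1), a lactate and pyruvate transporter, was at 64.2, 57.2, 29.6 and 25.99 FPKM, 2.17-fold and 2.202-fold below control (log2 -1.12 and -1.14, counting SE 0.03 for each). Slc16a3 (MCT4), the export form induced by hypoxia, was at 19.2, 15.4, 8.30 and 11.5 FPKM. It was 2.31-fold below control on 0.5 kPa and 1.34-fold below on 12 kPa, so only the first was past 1.5-fold. Together they summed to 83.3, 72.6, 37.9 and 37.5 FPKM. Pdk1, the kinase that switches off pyruvate dehydrogenase, was at 14.3, 11.8, 21.9 and 19.9 FPKM, 1.53-fold and 1.69-fold above control. The value on 0.5 kPa lay close to the threshold, and a pseudocount of 1 took it to a log2 ratio of 0.58, just inside. The lactate dehydrogenase subunits did not separate in this way, with Ldha at 375, 360, 445 and 411 FPKM and Ldhb at 73.0, 67.6, 72.5 and 66.1 FPKM, and Ldha made up 83.7% to 86.2% of their sum.

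Of the 5 measured genes for Hif subunits and oxygen sensing, 0 were past 1.5-fold between shSrf and control cells on either matrix, a list too short to be read against the 9.19% of all genes higher and 9.28% lower on 0.5 kPa and the 10.2% and 8.88% on 12 kPa. Hif1a, the alpha subunit, was at 46.8, 49.3, 37.4 and 35.9 FPKM, with both shSrf libraries below both control libraries by log2 -0.32 and -0.46, and with centring in GC bins these were -0.13 and -0.15. It made up at least 99.0% of the summed FPKM of Hif1a and Epas1 in every library. Arnt was at 36.2, 32.4, 39.4 and 38.6 FPKM. The prolyl hydroxylase Egln1 was at 7.75, 7.07, 8.97 and 9.19 FPKM, and Egln3, itself a Hif target, was at 25.3, 32.0, 26.7 and 24.0 FPKM. Vhl was at 37.6, 43.7, 39.8 and 35.9 FPKM.

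The other Hif targets went in both directions. Ddit4, an inhibitor of mTORC1 signalling, was at 49.2, 38.8, 78.8 and 72.9 FPKM, 1.60-fold and 1.88-fold above control. Its log2 ratio on 0.5 kPa fell from 0.68 to 0.52 with centring in GC bins, which is inside 1.5-fold, and on 12 kPa it stayed past it. Ero1l, an oxidase for disulphide formation in the endoplasmic reticulum, was at 17.1, 17.7, 8.69 and 8.12 FPKM, 1.97-fold and 2.18-fold below control, and no shSrf value came near a control value. Bnip3 and Bnip3l, receptors for the removal of mitochondria, diverged. Bnip3 was at 19.5, 20.5, 32.1 and 29.2 FPKM, 1.65-fold above control on 0.5 kPa and 1.43-fold on 12 kPa, and with centring in GC bins it was past 1.5-fold on both (log2 0.92 and 0.83). By contrast, Bnip3l was at 130.1, 126, 92.0 and 92.2 FPKM, 1.41-fold and 1.36-fold below, which is within 1.5-fold. Centring in GC bins left its log2 ratios at -0.30 and -0.14, from -0.50 and -0.45. In FPKM as deposited, the Bnip3 share of the sum of Bnip3 and Bnip3l was 13.0% and 13.98% in control and 25.9% and 24.1% in shSrf cells.

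Ndrg1, a stress-response gene of differentiating cells, was at 18.2, 16.6, 19.2 and 28.0 FPKM and was 1.68-fold above control on 12 kPa only, with no such difference on 0.5 kPa (1.05-fold). The highest value came from 1 library, shSrf 12 kPa, and the difference between the ratios was not tested. With centring in GC bins its log2 ratio on 12 kPa was 0.55, inside 1.5-fold. Car9, a carbonic anhydrase at the cell surface, was at 3.29, 3.97, 2.198 and 2.68 FPKM, and lay just inside the threshold at 1.497-fold and 1.485-fold below control. P4ha1 (62.4, 64.2, 52.8 and 52.1 FPKM) and P4ha2 (36.4, 34.6, 27.9 and 27.6 FPKM), the alpha subunits of collagen prolyl hydroxylase, were within 1.5-fold, each with both shSrf libraries below both control libraries. Ankrd37, a small ankyrin-repeat gene, was at 3.71, 3.70, 3.85 and 2.72 FPKM on about 64.9 reads in the shallowest library.

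**Figure D3:**
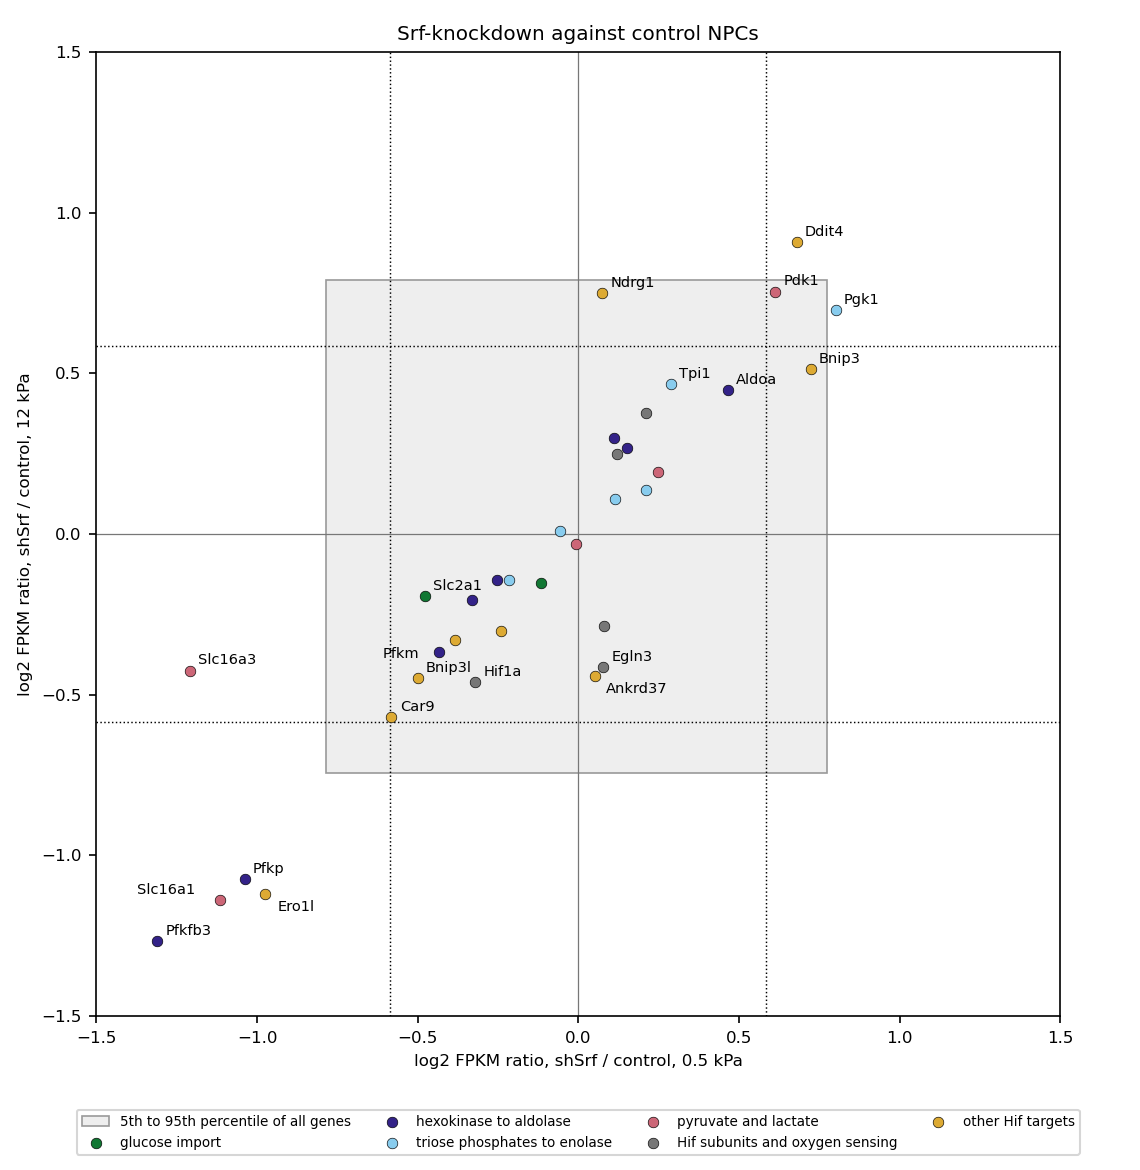
Log2 FPKM ratio of shSrf to control on 0.5 kPa (x axis) and on 12 kPa (y axis) for the 35 genes above the minimum, coloured by role, with dotted lines at 1.5-fold and a grey box from the 5th to the 95th percentile of all 10489 genes on each axis. Pfkfb3, Slc16a1, Pfkp and Ero1l lie together at the lower left past the box on both axes. Ddit4, Pdk1 and Pgk1 lie past both lines at the upper right, and Bnip3, Ndrg1 and Slc16a3 are past a line on 1 axis only.

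Between 12 and 0.5 kPa the differences were smaller, and the study's own threshold for this comparison was 1.1-fold. In control cells, 4 of the 35 genes were higher on 12 kPa, namely Slc2a3, Vhl, Egln3 and Car9, where 17.9% of all genes were. 10 genes were lower, where 16.9% of all genes were: Slc2a1, Hk2, Gpi1, Pfkp, Tpi1, Pdk1, Slc16a1, Slc16a3, Arnt and Ddit4. That is 28.6% of the 35. In shSrf cells 5 were higher (Slc2a3, Pfkl, Slc16a3, Ndrg1 and Car9; 17.6% of all genes) and 7 were lower (Pfkp, Pgk1, Pdk1, Slc16a1, Vhl, Egln3 and Ankrd37; 13.0% of all genes). The median log2 ratio was -0.07 in control and -0.03 in shSrf cells, beside 0.00 and 0.01 for all genes. At 1.2-fold 3 genes were higher and 3 lower in control cells, and 4 were higher and 1 lower in shSrf cells. No share of all genes is given at that fold. The pair of stiffness ratios shares no library, and across the 35 genes they ran together only loosely, with a Pearson correlation of 0.207 and a Spearman correlation of 0.07, against 0.07 and 0.08 over all genes. Signs matched for 20 of the 35 (57.1%, beside 52.2% of all genes). Each stiffness ratio does share its libraries with the ratios of shSrf to control.

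Slc2a3 had the largest stiffness ratio of the 35 genes in control cells, 1.48-fold higher on 12 kPa (log2 0.57), and was 1.44-fold higher in shSrf cells (log2 0.53). Both 12 kPa libraries lay above both 0.5 kPa libraries. The counting SE of the log2 ratios was 0.31 and 0.24, on an estimated 38.7 reads in control 0.5 kPa and 47.5 in control 12 kPa. These estimates rest on a median transcript length of 509.5 bases, and a longer transcript would give more reads and smaller SEs. Car9 was higher on 12 kPa in both kinds of cell as well, by 1.21-fold and 1.22-fold, with counting SEs of 0.17 and 0.15 on the log2 scale. Pfkp, Slc16a1 and Pdk1 were lower on 12 kPa in both kinds of cell. For Pfkp the log2 ratios were -0.16 and -0.19, for Slc16a1 they were -0.16 and -0.19, and for Pdk1 -0.28 and -0.14, and Pdk1 in shSrf cells lay at the threshold (1.101-fold). Centring in GC bins took the shSrf ratios of Pdk1 and Slc16a1 inside 1.1-fold, at log2 -0.11 and -0.14.

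Slc16a3, Vhl and Egln3 were past 1.1-fold in opposite directions in the 2 kinds of cell, 3 of the 35 (8.57%) where 6.01% of all genes were. Slc16a3 was lower on 12 kPa in control cells (log2 -0.32, counting SE 0.08) and higher in shSrf cells (log2 0.47, counting SE 0.08). Egln3 was higher on 12 kPa in control cells (log2 0.34, counting SE 0.05) and lower in shSrf cells (log2 -0.15, counting SE 0.04), and Vhl likewise (log2 0.22 and -0.15, counting SE 0.04 and 0.03). The counting SEs cover the reads of these libraries only, and with 1 library per condition the variation between cultures is unknown. Ddit4 was 1.27-fold lower on 12 kPa in control cells and 1.08-fold lower in shSrf cells. Ndrg1 was 1.46-fold higher on 12 kPa in shSrf cells (log2 0.55) and stood at log2 -0.13 in control cells. Ankrd37 was 1.42-fold lower on 12 kPa in shSrf cells (log2 -0.50, counting SE 0.18), and its control ratio was log2 -0.01 (counting SE 0.24).

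**Figure D4:**
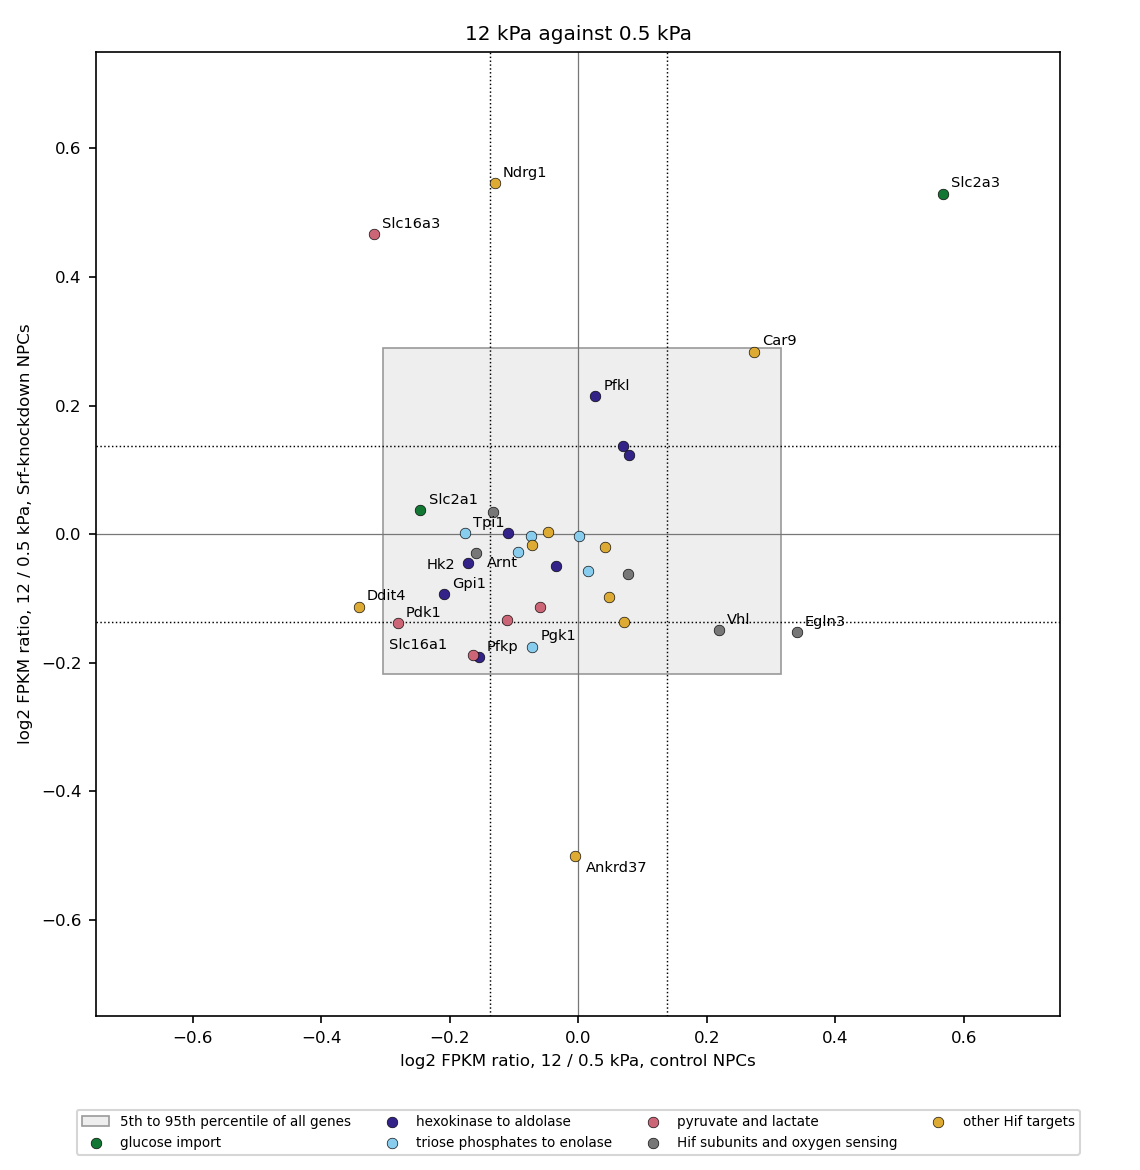
Log2 FPKM ratio of 12 kPa to 0.5 kPa in control cells (x axis) and in shSrf cells (y axis) for the 35 genes above the minimum, coloured by role, with dotted lines at 1.1-fold and a grey box from the 5th to the 95th percentile of all 10489 genes on each axis. Slc2a3 lies at the upper right with 0.57 and 0.53, Slc16a3 at the upper left with -0.32 and 0.47, Egln3 and Vhl at the lower right, and most other genes near the centre.

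The other genes of these pathways were taken from a list of 65, of which 52 exceeded the minimum. That list was chosen with earlier results of these data known, so its shares beside those of all genes are a description only. The testis isoforms Pgk2 and Ldhc and the liver enzymes Pklr and Fbp1 were listed at 0 in all 4 libraries. Pkm, the pyruvate kinase that ends glycolysis, was at 588, 522, 635 and 608 FPKM, with log2 ratios to control of 0.11 and 0.22. With centring in GC bins the Pkm ratios were 0 and 0.05, so no direction is given for it. Vegfa, the angiogenic factor and a Hif target, was at 32.6, 29.5, 49.9 and 43.6 FPKM, with log2 ratios to control of 0.61 and 0.57, and 0.55 and 0.53 with centring in GC bins, which is inside 1.5-fold on both matrices. Both Pkm and Vegfa were named after their values were seen. Past 1.5-fold at both stiffnesses, 7 of the 52 (13.5%, beside 6.63% of all genes) were higher in shSrf cells and 3 (5.77%, beside 6.17%) lower. On 0.5 kPa 8 (15.4%, beside 9.19%) were higher and 4 (7.69%, beside 9.28%) lower. On 12 kPa 9 (17.3%, beside 10.2%) were higher and 7 (13.5%, beside 8.88%) lower. With centring in GC bins the split was 5 higher and 3 lower on 0.5 kPa, and 6 higher and 6 lower on 12 kPa, with no share of all genes given.

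The 7 higher ones were led by Lox, the collagen and elastin crosslinking oxidase, at 13.5, 19.6, 75.6 and 92.6 FPKM (5.61-fold and 4.72-fold above control). Angptl4, a secreted inhibitor of lipoprotein lipase, was at 4.58, 4.32, 16.0 and 17.9 FPKM, and Txnip, a brake on glucose uptake, at 43.5, 52.2, 128 and 113 FPKM. Both shSrf values exceeded both control values for each of these 3 genes. Mxi1, a Myc antagonist (log2 1.28 and 1.09), Sap30, a subunit of a histone deacetylase complex (0.80 and 0.96), Mif, a cytokine (0.61 and 0.79), and Tkt, transketolase of the pentose phosphate pathway (0.59 and 0.70), made up the rest. With centring in GC bins Mif and Tkt were inside 1.5-fold on both matrices. The 3 lower ones were Higd1a, a mitochondrial protein (log2 -0.94 and -0.76), Pgm1, named as a phosphoglucomutase (-0.66 and -0.84), and Rbpj, the transcription factor of Notch signalling (-0.65 and -0.71). Rbpj was inside 1.5-fold with GC centring.

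Between 12 and 0.5 kPa, 15 of the 52 (28.8%, beside 17.9% of all genes) were higher past 1.1-fold and 8 (15.4%, beside 16.9%) lower in control cells. In shSrf cells 14 (26.9%, beside 17.6%) were higher and 14 (26.9%, beside 13.0%) lower. With centring in GC bins the split was 9 higher and 12 lower in shSrf cells, and 16 higher and 10 lower in control cells. The shares of all genes above are without that centring. Furthest from 0 in control cells were Pgam2, the muscle phosphoglycerate mutase (log2 0.67, counting SE 0.25), Slc16a7, the pyruvate transporter MCT2 (0.56), and Lox (0.54). In shSrf cells they were Adm, adrenomedullin (0.81), Slc2a8, an intracellular glucose transporter (0.72), and Pdk2, another pyruvate dehydrogenase kinase (0.50). Slc16a7 was at 4.29, 6.32, 5.54 and 4.14 FPKM, so it was higher on 12 kPa in control cells and lower there in shSrf cells. Adm was at 9.98, 9.65, 7.41 and 13.0 FPKM, and only the shSrf pair differed past 1.1-fold.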

How the data were processed

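RNA was sequenced single-end from TruSeq Stranded mRNA libraries on a NextSeq 500. Per the submitters' processing notes and the study's methods, the authors trimmed reads with cutadapt 1.9.1, mapped them to mm10 with TopHat2 2.1.0 and Bowtie2 2.2.8 on GENCODE M14, kept reads of high mapping quality, and deposited FPKM per gene from Cufflinks 2.2.1, a quantity the methods call RPKM. FPKM is corrected for transcript length and for the number of mapped reads, so values of different genes can be compared as levels.

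The 36 genes, the wider list of 65 genes and the marker lists were chosen with earlier results of these data known. From 21997 rows, 63 symbols on 135 rows were left out, and 21862 genes remained. Genes above 2 FPKM in all 4 libraries were kept, log2 ratios were taken without a pseudocount, and a gene was counted past 1.1-fold (12 against 0.5 kPa) or 1.5-fold (shSrf against control). With 1 library per condition no test was run. The text names all 36 genes, and of the wider list those past 1.5-fold in 1 direction at both stiffnesses and the 3 furthest from 0 in each stiffness ratio; exceptions are stated.

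Read depth was estimated from genes below 0.1 FPKM, of which 791 of 1101 sat on whole-read steps within a tolerance of 0.02. The counting SE of a log2 ratio uses this depth and GENCODE M1 transcript lengths less 200 bases, covers counting error only and is approximate for genes with several transcripts. The depth and ratio steps were run on simulated data made with these same transcript lengths, so that run cannot show an error in the lengths. Promoters were the RefSeq windows of GRCm38.p6, and Python 3.11.15, numpy 2.4.6, pandas 2.3.3 and matplotlib 3.10.9 were used. Alternatives were another minimum, a pseudocount, median or 75th percentile scaling, centring in 50 GC bins and higher folds.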

Additional observations from a re-analysis of the deposited data

Results flagged for a closer look

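Of the 87 genes above the minimum in the 36 and in the wider list of 65, 8 had a stiffness ratio past 1.1-fold in opposite directions in control and shSrf cells, which is 9.20% beside 6.01% of all genes. These differences of ratios were not tested, since each rests on 1 library per condition. The log2 ratio of 12 to 0.5 kPa in control cells minus that in shSrf cells was -0.78 for the lactate transporter Slc16a3, 0.37 for Vhl and 0.49 for the prolyl hydroxylase Egln3. Among the wider pathway genes it was 0.98 for the pyruvate transporter Slc16a7, -0.58 for Arnt2, a relative of Arnt, 0.54 for Mpc2, a subunit of the mitochondrial pyruvate carrier, 0.44 for Txnip and 0.42 for Tfrc, the transferrin receptor. Arnt2, Mpc2 and Tfrc were named after their values were seen. With centring in GC bins the ratios in control and shSrf cells were -0.27 and 0.39 for Slc16a3, 0.23 and -0.14 for Vhl, 0.34 and -0.17 for Egln3, 0.54 and -0.35 for Slc16a7, 0.33 and -0.23 for Mpc2, and 0.25 and -0.17 for Txnip, so these kept both directions past 1.1-fold. Under that centring the shSrf ratio came inside 1.1-fold for Arnt2 (-0.41 in control and 0.136 in shSrf cells) and Tfrc (0.22 and -0.12).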

How the results depend on the processing

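No paired analysis was possible because there was a single library in every group, which also means that no replicate could be left out. With a minimum of 5 FPKM, 2 genes in place of 4 were higher on 12 kPa in control cells and 3 in place of 5 in shSrf cells. At 1.2-fold, 3 in place of 10 were lower on 12 kPa in control cells and 1 in place of 7 in shSrf cells. At 2-fold, 0 in place of 4 were higher in shSrf than in control cells on 0.5 kPa, 0 in place of 4 on 12 kPa and 0 in place of 3 on both. Every other count of the 36 genes stayed within 1.5 times its value, and no direction past a threshold reversed under any of the 8 alternatives. No share of all genes is given under the alternatives, so the counts made with them are not read against other genes. Centring in GC bins (10315 of 10489 genes had a value, and all 35 of the genes followed) gave 3 higher and 6 lower at both stiffnesses, with Bnip3 in place of Ddit4 among the higher ones and Slc16a3 and Car9 added to the lower ones. It also took Slc2a1 to a log2 ratio of -0.59 on 0.5 kPa, just past 1.5-fold. Of 220 ratios of named genes, 171 kept their side of the threshold and moved little with GC centring, 10 passed it anew, 14 lost it and 25 others moved; with median centring 216 of 220 were kept, with 75th percentile scaling 218 and with a pseudocount of 1 216. Low depth limits Ankrd37, with about 64.9 reads in control 12 kPa, and the variation between cultures was not measured. For Slc2a3 the estimate of 47.5 reads in control 12 kPa rests on a median transcript length of 509.5 bases, so its depth is uncertain.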
